A study of Homo sapiens with 4 samples.

Results

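GDF15, the stanniocalcins STC1 and STC2, FGF21 and ANGPTL4 are secreted proteins whose transcripts are known to rise when cells are stressed or starved, and they were followed here in HEK293 cells at high and low glucose. HEK293 is an established human embryonic kidney cell line. The cells had been kept for 7 days in DMEM with fetal calf serum and glucose at 450 mg/dl, called high here, or at 100 mg/dl, called low, with no other treatment named in the labels. Total RNA was measured on 4 single-colour Affymetrix arrays, 2 per condition, described by the labels as biological replicates, with nothing on how separate the cultures were. The members are all probe sets that name 1 gene and whose symbol is one of these 5, which gave 5 genes of 19775 and 11 probe sets among 41091 with 1 gene and 54675 on the array. The genes were chosen by a rule that knew their log2 differences between high and low glucose on these arrays, so their differences are given as a description without a test.

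GDF15 is a distant member of the TGF-beta superfamily that is released by stressed cells and acts on the receptor GFRAL with its partner RET in the hindbrain. FGF21 is an endocrine fibroblast growth factor that signals through FGF receptors with the co-receptor beta-klotho (KLB). STC1 and STC2 are glycoprotein hormones that inhibit the pappalysin proteases, which free insulin-like growth factors from their binding proteins, and ANGPTL4 inhibits lipoprotein lipase (LPL). The integrated stress response, in which phosphorylation of eIF2alpha favours translation of the transcription factor ATF4, is a known inducer of GDF15, STC2 and FGF21, while ANGPTL4 is a known target of PPAR and hypoxia-inducible factors.

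Signals are linear, and were scaled before deposit to a trimmed mean of 200.02 on each array. The arrays gave median signals between 33.3 and 38.7. A probe set was counted as measured when its geometric mean over the 4 arrays reached 32.9, the median of all probe sets without controls. This signal is called the filter below, and a level under it is not shown to be above background. The 24 probe sets for bacterial poly-A transcripts, spiked into RNA ahead of labelling, read higher in high glucose by a median of 1.94 log2 units (3.84-fold), with no overlap in any of the 24. For the 18 hybridisation controls the median was 486 on high glucose replicate 1 and 869 to 891 on the other arrays. The part of these differences in the results was not tested. Of 10 HEK293 marker genes with a probe set, 7 were measured, with summed signals of 21968 and 24732 in high glucose and of 20122 and 20563 in low glucose, and INA, NEFH and NEFM lay under the filter. On the high glucose arrays 3 of the 7 rose and 2 fell by limma at an adjusted p under 0.05, among them KRT18 (1.07 log2 units), KRT8 (1.06) and VIM (-0.91). Hepatocyte and leukocyte markers lay under it in 6 of 6 and 4 of 4 cases. Their summed signals were 77.2 to 98.6 in high and 126 to 127 in low glucose for hepatocytes, and 22.7 to 62.0 and 30.2 to 60.5 for leukocytes. Adipocyte markers did so in 4 of 5, the other being CIDEC, with sums of 79.2 to 90.1 in high and 120 to 127 in low glucose. In bulk RNA, fewer cells that make a transcript and less of it per cell cannot be told apart.

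GDF15 transcript was close to the filter in high glucose and far brighter in low glucose. Its brightest probe set, 221577_x_at, read 34.3 and 53.7 on the high glucose arrays and 2106 and 2062 on the low glucose arrays. The groups were far apart, and the low glucose arrays agreed to within 1.02-fold while the high glucose arrays differed 1.56-fold. The means were 44.0 ± 13.7 (SD, n = 2) in high and 2084 ± 32 (SD, n = 2) in low glucose, a log2 difference of -5.60 ± 0.19 (SE) or 48.5-fold. The other GDF15 probe sets lay under the filter on every array. Probe set 229868_s_at read 1.18 and 3.77 in high glucose against 22.3 and 4.43 in low glucose. Probe set 221576_at read 1.19 and 1.59 in high against 3.0 and 4.83 in low glucose. Both were lower in high glucose without overlap of the groups, at log2 differences of -2.24 ± 1.18 and -1.46 ± 0.94 (SE). The size of the GDF15 difference therefore rests on 1 probe set, of a type (_x_at) whose probes may also match other transcripts.

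STC2 was brighter in low glucose in both of its probe sets. Probe set 203438_at read 83.5 and 89.9 in high glucose against 454 and 431 in low glucose. Its means of 86.7 ± 4.5 and 442 ± 16 (SD, n = 2 each) differed by -2.35 ± 0.11 log2 units (SE), or 5.10-fold. Probe set 203439_s_at read 61.6 and 63.8 in high against 156 and 149 in low glucose, a difference of -1.28 ± 0.15 log2 units or 2.43-fold. All 4 arrays were above the filter in both probe sets, and arrays of 1 condition differed by at most 1.08-fold. The direction was shared by the probe sets, and its size was not.

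STC1, the paralog of STC2, gave different answers in its 3 probe sets. The brightest by geometric mean, 204595_s_at, read 36.6 and 25.5 in high glucose against 42.1 and 42.4 in low glucose, a difference of -0.47 ± 0.36 log2 units (SE) or 1.38-fold. Its groups did not overlap, but the high glucose arrays lay 1.44-fold apart, more than the groups did. Probe set 204597_x_at, almost as bright, read 14.4 and 17.7 in high against 78.5 and 75.8 in low glucose. Here the difference was -2.28 ± 0.34 log2 units or 4.84-fold, and the high glucose level lay under the filter, against which the low glucose mean stood 2.34-fold higher. Probe set 204596_s_at, under the filter by its mean, read 23.2 and 5.33 in high against 37.8 and 29.1 in low glucose (-1.57 ± 0.77 log2 units). All 3 STC1 probe sets were lower in high glucose, with folds between 1.38 and 4.84. The brightest probe set changes from 204595_s_at to 204597_x_at when either high glucose array is left out. The STC1 difference then stands at -2.13 without high glucose replicate 1 and at -2.42 without high glucose replicate 2.

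FGF21 has 1 probe set, 221433_at, and its mean over all arrays was under the filter. It read 4.61 and 4.15 in high glucose against 44.3 and 38.7 in low glucose. Both low glucose arrays were above the filter signal and both high glucose arrays well under it. The means of 4.38 ± 0.32 and 41.5 ± 4.0 (SD, n = 2 each) gave a log2 difference of -3.24 ± 0.65 (SE), or 9.46-fold. The high glucose signals behind this fold are not shown to be above background. Against the filter signal the low glucose mean was 1.26-fold higher.

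ANGPTL4 stayed under the filter on all 4 arrays in both probe sets. Probe set 221009_s_at read 4.92 and 8.63 in high glucose against 26.3 and 8.06 in low glucose, so the groups overlapped. Its low glucose arrays lay 3.27-fold apart. Probe set 223333_s_at read 1.70 and 1.91 in high against 3.78 and 2.85 in low glucose. The log2 differences were -1.16 ± 0.90 and -0.86 ± 0.93 (SE), and no level of ANGPTL4 above background was shown in either condition. Without low glucose replicate 1 the difference of the brighter probe set was -0.31, and without low glucose replicate 2 it was -2.01.

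**Figure D1:**
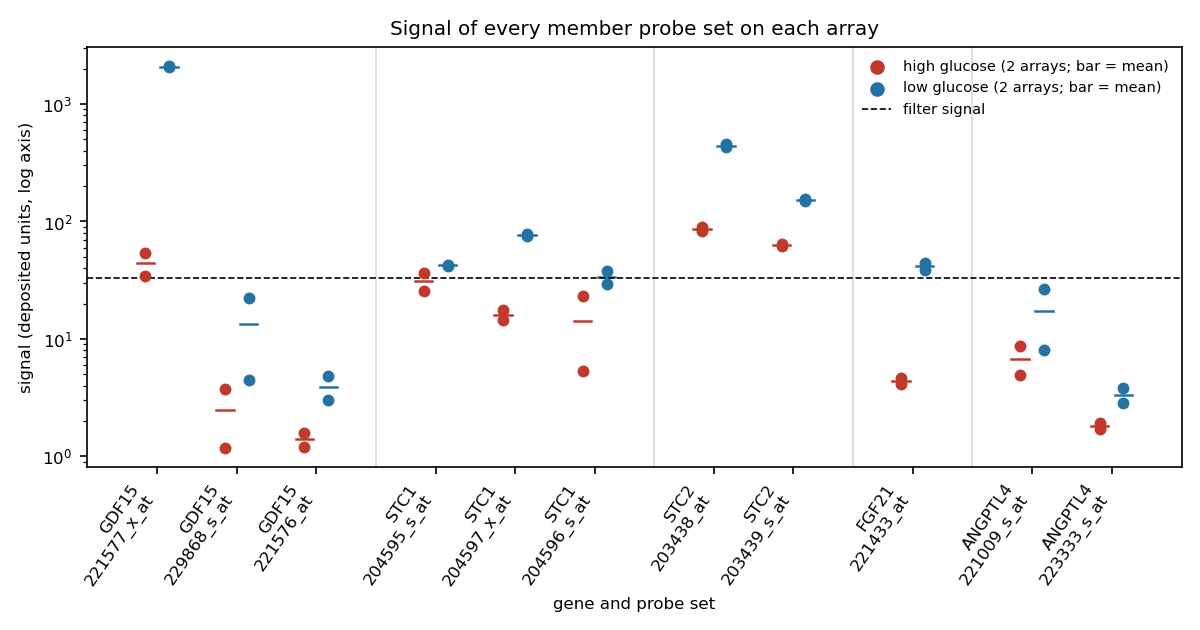
Signal (deposited units, log axis) of each of the 11 member probe sets on the 2 high glucose and 2 low glucose arrays, with points for arrays, bars for group means and a dashed line at the filter signal of 32.9. GDF15 221577_x_at spans from 34.3 to 2106, both STC2 probe sets lie above the line on all arrays, and ANGPTL4 lies below it on all arrays.

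Of the 11 member probe sets, 10 had both high glucose arrays below both low glucose arrays, 0 had the reverse, and 1 overlapped. Among all 54613 probe sets without controls, 34.5% separated in this direction, as did 27.6% of the 27306 under the filter, 6 of which are member probe sets. The median log2 difference was -1.57 over the 11 member probe sets, -0.13 over all probe sets and -0.26 over those under the filter. The contrast that picked the genes is the one counted here, so nothing is read from these shares.

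**Figure D2:**
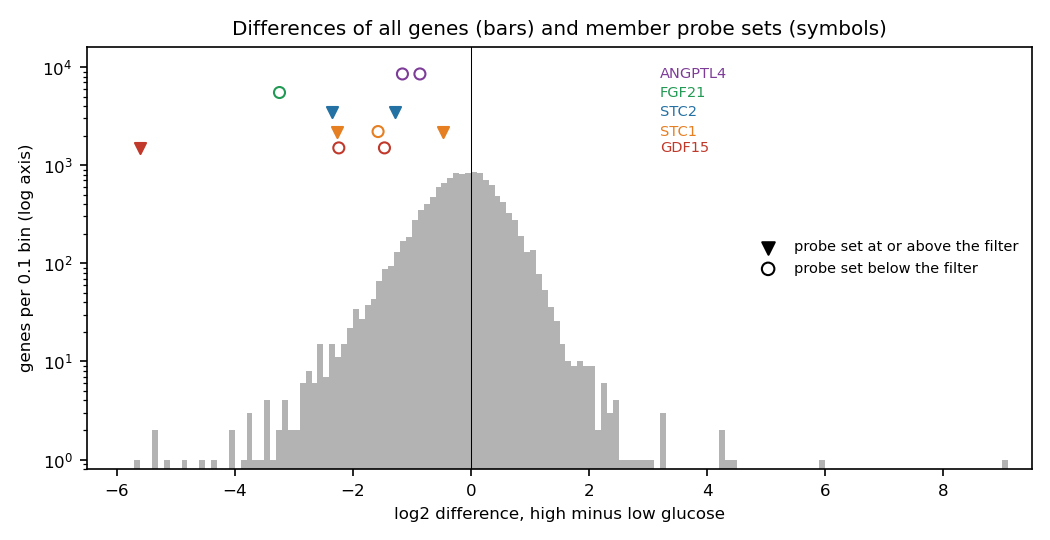
Log2 differences (high minus low glucose) of the 12242 genes as grey bars (genes per bin, log axis) and of the 11 member probe sets as symbols, filled triangles at or above the filter and open circles below it. All 11 symbols lie left of 0, from -5.60 for GDF15 to -0.47 for STC1, and their height has no meaning.

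GDF15, STC2 and FGF21 are known targets of ATF4, and the DNA just upstream of their start sites is shown, with ANGPTL4 for comparison. Whether ATF4 acted on these genes here was not tested. Sequences are from RefSeq (GRCh38.p14), 250 bases on the gene's strand that end at the base before the annotated start, and 4 of the 5 members matched, STC1 being the other. Capitals mark each match to a motif searched on both strands. The windows are chr19:18385908-18386157 for GDF15 (plus strand), chr5:173328415-173328664 for STC2 (minus strand), chr19:48755274-48755523 for FGF21 (plus strand) and chr19:8363905-8364154 for ANGPTL4 (plus strand).
GDF15: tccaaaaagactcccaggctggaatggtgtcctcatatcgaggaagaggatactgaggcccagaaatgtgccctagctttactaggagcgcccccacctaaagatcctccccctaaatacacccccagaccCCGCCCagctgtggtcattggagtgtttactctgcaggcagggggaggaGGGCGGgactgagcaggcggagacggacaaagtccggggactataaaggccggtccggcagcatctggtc
STC2: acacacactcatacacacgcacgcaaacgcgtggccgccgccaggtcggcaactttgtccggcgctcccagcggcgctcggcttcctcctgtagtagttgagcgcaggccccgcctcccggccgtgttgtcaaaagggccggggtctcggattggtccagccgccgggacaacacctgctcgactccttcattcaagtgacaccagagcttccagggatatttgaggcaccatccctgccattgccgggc
FGF21: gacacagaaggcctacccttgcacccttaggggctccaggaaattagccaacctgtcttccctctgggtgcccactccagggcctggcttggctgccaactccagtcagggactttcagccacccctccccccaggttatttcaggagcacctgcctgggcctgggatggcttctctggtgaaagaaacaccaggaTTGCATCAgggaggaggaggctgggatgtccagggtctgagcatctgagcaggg
ANGPTL4: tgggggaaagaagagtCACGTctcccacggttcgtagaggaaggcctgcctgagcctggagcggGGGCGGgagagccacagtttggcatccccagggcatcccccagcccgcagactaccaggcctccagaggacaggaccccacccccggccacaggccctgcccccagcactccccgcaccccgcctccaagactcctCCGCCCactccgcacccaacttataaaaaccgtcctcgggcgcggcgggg

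The motif for the C/EBP-ATF response element through which ATF4 acts was TGATGNAA, and FGF21 held it once, on the strand opposite to the gene, 54 to 47 bases before the start, where the printed strand reads TTGCATCA. Among all 35116 RefSeq windows of this length, 3.14% hold that motif. The GDF15, STC2 and ANGPTL4 windows do not hold these letters, which says nothing of sites elsewhere. The hypoxia response core ACGTG occurred once, in ANGPTL4 on the strand opposite to the gene, 234 to 230 bases before the start, where the printed strand reads CACGT, and is held by 18.51% of windows. The GC box GGGCGG, held by 42.64% of windows, occurred at 2 places in GDF15 and at 2 places in ANGPTL4. The E-box CACGTG (6.34% of windows, and overlapping the hypoxia core), the cAMP response element TGACGTCA (1.65%), the ER stress element (ERSE, 0.07%) and the carbohydrate response element made of paired E-boxes (ChoRE, 1 window of 35116) were in none of the 4. The G and C content was 58.4% in GDF15, 63.6% in STC2, 60.0% in FGF21 and 68.8% in ANGPTL4, against a median of 58.0% over all windows.

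The genes around the members were tested with limma over 12242 genes, of which 33.3% were called lower and 24.3% higher in high glucose (adjusted p under 0.05). Higher genes made up 42.1% of the calls, and 58.8% after median centring. Receptors for the members went both ways. Of 5 measured receptor genes 3 fell in high glucose, 1 rose and 1 did not pass, with a list median of -0.47 log2 units against -0.10 over all 12242 genes. RET, the signalling partner of the GDF15 receptor, read 44.0 and 52.6 in high against 123 and 143 in low glucose. That is 2.76-fold lower in high glucose (limma adjusted p = 7.9e-04). FGFR3 rose from 895 and 794 in low to 1407 and 1570 in high glucose (1.76-fold, limma adjusted p = 1.2e-04), a smaller rise than that of the poly-A spikes. FGFR4 and FGFR2 fell 2.01-fold and 1.39-fold, and FGFR1, at -0.05 log2 units, did not pass. The FGF21 co-receptor KLB, at 10.5 and 13.3 in high against 3.51 and 15.3 in low glucose, and KL lay under the filter, and GFRAL was not analysed here.

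In a list of genes for the enzymes that the members inhibit or are cut by and for proteins that such enzymes cut or that mature them, 4 of 7 measured genes were lower in high glucose and 0 higher, with a median of -0.91. After each of the 3 normalizations between arrays 1 gene, PAPPA2, was called higher. LPL, the lipase that ANGPTL4 inhibits, read 152 and 127 in high against 517 and 497 in low glucose, a fall of 3.66-fold (limma adjusted p = 1.6e-05). Its other measured probe set fell by 2.17 log2 units. PAPPA, the pappalysin that STC1 and STC2 inhibit, read 47.4 and 62.1 in high against 186 and 140 in low glucose. PAPPA fell 2.98-fold (limma adjusted p = 8.1e-04), and its 4 other measured probe sets fell too, between -1.48 and -2.06 log2 units. IGFBP4 and IGFBP5, the binding proteins that pappalysins cut, fell 1.76-fold and 1.88-fold (limma adjusted p = 0.013 and 0.019). Both lost the call without high glucose replicate 1 (adjusted p = 0.061 and 0.087) and without low glucose replicate 1 (0.054 and 0.12), with ranges of 0.0092 to 0.061 and 0.0073 to 0.12 over 13 alternatives. Without low glucose replicate 1 the list held 2 lower genes and 1 higher. LIPG, an endothelial lipase, stood at -0.95, PAPPA2 at 0.53 and the lipase maturation factor LMF1 at -0.01 log2 units, and these did not pass. The LMF1 value is that of its brightest probe set. All other measured LMF1 probe sets were lower in high glucose, between -0.41 and -1.52 log2 units. Each of these was called lower except that at -0.46. With the mean of probe sets LMF1 was called lower (-0.72), and the list then held 5 lower genes. LIPG was called lower without low glucose replicate 2 (-1.31), PAPPA2 higher without low glucose replicate 1 (0.81) and after quantile normalization (0.65), median centring (0.70) and cyclic loess (0.65), and LMF1 lower without high glucose replicate 1 or 2 (-0.83 and -0.86), where another of its probe sets is the brightest.

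Proprotein convertases, some of which cut GDF15 and ANGPTL4 during secretion, fell in 2 of 6 measured genes and rose in 1, with a list median of -0.16 that turned to 0.01 after median centring. Without high glucose replicate 1, or without low glucose replicate 2, 1 fell. FURIN read 370 and 320 in high against 327 and 282 in low glucose, with overlap, and did not pass (0.18 log2 units, limma adjusted p = 0.21), though it was called higher after median centring (0.35 log2 units, adjusted p = 0.022). MBTPS1, the site-1 protease, fell 1.56-fold (limma adjusted p = 3.7e-04) and PCSK5 rose 1.88-fold (limma adjusted p = 0.0011), less than the poly-A spikes. Among the 12 relatives with a probe set, the other endocrine FGFs, ANGPTL genes and GDF genes, only GDF7 and GDF11 were measured. GDF7 did not pass. GDF11 rose 1.44-fold in its brightest probe set, and its 2 other measured probe sets fell, by 0.72 and 0.44 log2 units.

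Regulators of the integrated stress response and unfolded protein response fell in 12 of 16 measured genes, rose in 1 and did not pass in 3, with a list median of -1.50 log2 units. DDIT3, the transcription factor CHOP, read 151 and 167 in high against 3802 and 3520 in low glucose. CEBPG, a partner of ATF4 in DNA binding, fell 4.83-fold and ATF4 itself fell by 1.14 log2 units. Of the eIF2alpha kinases, EIF2AK3 (PERK, the sensor of the ER) fell by 1.64 log2 units and EIF2AK4 (GCN2, the sensor of amino acid lack) rose by 0.78. EIF2AK1 and EIF2AK2 stood at -0.11 and 0.11 and did not pass. EIF2AK1 was called lower with the mean of its probe sets (-0.41) and after quantile normalization (-0.16), and EIF2AK2 higher after median centring (0.28).

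Among other regulators known to act on these genes, some fell and some rose. Of 7 measured hypoxia factors 3 fell and 2 rose (median 0.08), with EPAS1 1.79-fold lower and HIF1A 1.27-fold higher. Without high glucose replicate 1, 1 fell and 1 rose, and without low glucose replicate 1, 1 fell and 2 rose. Of 8 PPAR, RXR and ChREBP genes 4 fell and 1 rose (median -0.44). PPARA, a known inducer of FGF21 and ANGPTL4, read 104 and 110 in high against 179 and 191 in low glucose (1.73-fold lower, limma adjusted p = 0.0024). MLXIPL, the glucose-responsive factor ChREBP, read 40.3 and 24.7 in high against 106 and 82.4 in low glucose, 2.96-fold lower (limma adjusted p = 0.0040). In the list of the p53 axis and EGR1, 3 of 5 measured genes rose and 1 fell (median 0.21), and 0 fell without high glucose replicate 1 or 2 or low glucose replicate 1. EGR1, a known activator of GDF15, rose 2.21-fold in high glucose, from 156 and 118 to 306 and 294, less than the poly-A spikes. Whether EGR1 acted on GDF15 in these cells was not tested.

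Secreted factors other than the members, also known from stressed cells, did not move one way. Of 12 measured genes 5 rose, 4 fell and 3 did not pass in high glucose, with a list median of 0.12 log2 units that ran from -0.24 to 0.56 over the alternatives. VEGFA, the vascular growth factor, read 409 and 425 in high against 2222 and 2409 in low glucose, 5.55-fold lower (limma adjusted p = 5.3e-07). MANF and CRELD2, which are released on ER stress, fell 3.35-fold and 2.50-fold, and the chemokine CXCL8 fell too, from 202 and 209 in low glucose to 18.7 and 28.2 in high glucose, both under the filter. DKK1, a Wnt inhibitor, rose 5.27-fold, from 62.2 and 40.0 to 281 and 246, and ADM, adrenomedullin, rose 2.30-fold. The rise of DKK1 exceeded that of the poly-A spikes (3.84-fold), and the rise of ADM did not. The other genes named as rising in high glucose rose less than the spikes too. This comparison clears no gene, since the part of the spike difference in the results was not tested. INHBE, an inhibin subunit induced by ER stress, lay under the filter by its mean, at 11.5 and 0.86 in high against 115 and 117 in low glucose.

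**Figure D3:**
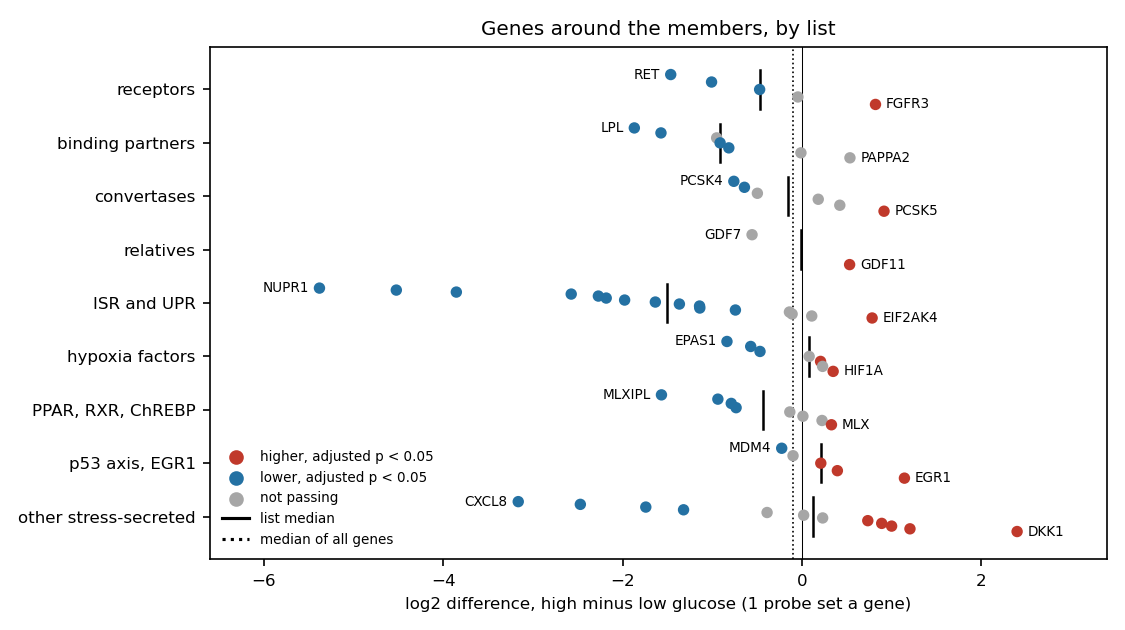
Log2 difference (high minus low glucose, 1 probe set a gene) of the 68 measured genes in 9 lists around the members, coloured by limma call, with list medians as bars and the median of all genes as a dotted line. The stress response list has a median of -1.50, while the other secreted factors run from CXCL8 at -3.16 to DKK1 at 2.40.

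The genes most like each measured member over the 4 arrays were sought by the root mean square distance between log2 signals centred on each gene's mean. Nearest to GDF15 were NUPR1 (0.15 log2 units), KLHDC7B (0.17), SPATA24 (0.36) and DNAH17 (0.55), against a median distance of 2.76 over all genes. On both high glucose arrays KLHDC7B (10.4 and 13.1) and DNAH17 (15.2 and 8.78) lay under the filter. The other measured probe set of SPATA24 stood at 0.17 log2 units and did not pass, and the mean of its probe sets gave -2.36 in place of -4.89. KLHDC7B ran from -5.51 to -3.25 over its 13 alternatives, the latter without low glucose replicate 2, where its other probe set is the brightest. Both KCNT2 arrays (19.8 and 23.0) and 1 NUPR1 array in high glucose lay under the filter too. NUPR1, a stress-induced chromatin protein, read 19.1 and 35.8 in high against 1127 and 1051 in low glucose. Nearest to STC2 were KCNT2 (0.05), CEBPG (0.05), SLC3A2 (0.05) and DNAJB9 (0.06), against a median of 1.13. SLC3A2, the heavy chain of amino acid exchangers, read 1085 and 1157 in high against 5642 and 5940 in low glucose, and DNAJB9, an ER co-chaperone, read 277 and 279 against 1467 and 1498. STC1, in probe set 204595_s_at, was nearest to KANK3 (0.02), CIRBP-AS1 (0.03), GLB1L (0.03) and TMEM108 (0.04), against a median of 0.34, and 0 of these 4 passed the test. The distance rests on 4 arrays in 2 groups. For GDF15 and STC2 it largely repeats the high minus low difference, which was known when the members were chosen. The genes nearest to GDF15 are those ranked 2 to 5 by size of fall among the 12242 genes. Nothing on shared control is therefore read from nearness.

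**Figure D4:**
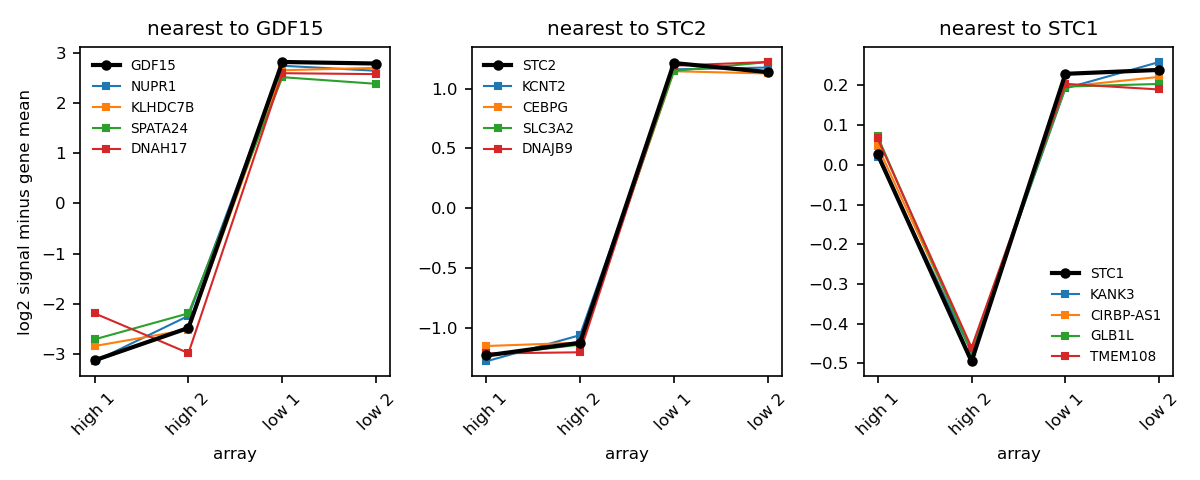
Log2 signal minus the gene's mean on each of the 4 arrays for GDF15, STC2 and STC1 (black) and the 4 genes nearest to each (colours), with lines joining the arrays of 1 gene. GDF15 and its nearest genes separate high from low glucose most widely (GDF15 -5.60, SPATA24 -4.89), STC2 and its nearest less so (STC2 -2.35), and the STC1 panel is led by the low reading on high glucose replicate 2.

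Under other settings all member differences kept their sign. GDF15 ran from -5.92 to -5.28 and STC2 from -2.40 to -2.30 when single arrays were left out. Without _x_at and _s_at probe sets GDF15 stood at -1.46, from a probe set under the filter, and STC1 and ANGPTL4 had none left. The mean of measured probe sets gave -1.37 for STC1 and -1.82 for STC2.

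**Figure D5:**
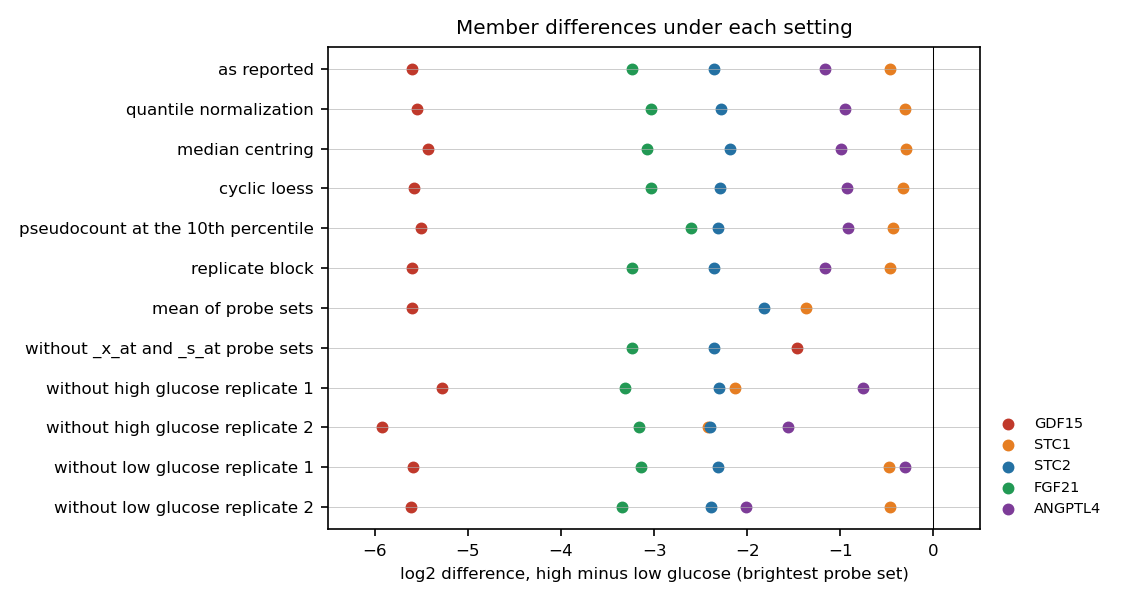
Log2 difference (high minus low glucose) of each member's brightest probe set as reported and under the alternatives. Those of filter and intensity trend were not applied to the members and are not shown. For the mean of probe sets the points are averages over a member's measured probe sets. Every point is left of 0, GDF15 moves to -1.46 without _x_at and _s_at probe sets, and STC1 moves from -0.47 to -2.13 or -2.42 when a high glucose array is left out.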

How the data were processed

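Array signals of 4 HEK293 samples were used. The authors deposited linear signal intensities, 1 for each probe set and array, made with GCOS, the Affymetrix software, per the submitters' processing notes. For the software version and further steps, nothing is given in the sources used here. The trimmed mean was 200.02 on every array, so a shift shared by most transcripts cannot be seen. Precision is limited by the number of arrays, and p-values measure only the spread between these samples, which may be technical.

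Signals were log2-transformed with no pseudocount or further normalization. Genes were named from GEO's platform annotation where it gives 1 gene, with symbols updated by gene identifier from RefSeq (GRCh38.p14). The 62 control probe sets were left out and 27307 of the others passed the filter of 32.9. For each of 12242 genes the brightest probe set by mean log2 signal was used. The groups were compared in limma 3.58.1 under R 4.3.3 (lmFit, eBayes with intensity trend, no covariate, Benjamini-Hochberg adjustment over all genes, threshold 0.05). SEs of members are from the same model over all probe sets without controls. The fit was also run on simulated data in which few genes changed, unlike here, so that run does not check these calls. The members and lists were chosen with earlier results of these data known. The rule named up to 4 genes per list by smallest p, 4 nearest genes per measured member, and any receptor, partner or convertase. ATF4, EIF2AK1, EIF2AK2, EIF2AK3, EIF2AK4, CXCL8, DKK1, INHBE and MLX were named after their values were seen. Alternatives covered normalization, filter, pseudocount, trend, probe set choice, the replicate number as a block and leaving out each array.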

Additional observations from a re-analysis of the deposited data

How the results depend on the processing

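With 2 arrays per group the fit has 2 residual degrees of freedom per gene, and levels under the filter are not shown to be above background. Genes called numbered 7049, and between 5122 and 7062 over 14 alternatives, 5925 to 6225 of them when single arrays were left out. After median centring 58.8% of the calls were higher genes against 42.1%, with the median of all genes at 0.07 in place of -0.10 log2 units. Pathway genes called numbered 48, and 40 to 49 with single arrays left out. Probe sets called numbered 13759, with 11200 to 12364 when single arrays were left out, and 9115 with the stricter filter, which tests fewer probe sets.

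Of 51 alternative values for the members' differences, 40 moved by less than 1 SD between replicates and none changed sign. Many of the 40 could not have moved further. With 2 arrays per group, leaving out 1 array cannot shift a difference by more than this SD while the probe set stays the same. A replicate block leaves the differences unchanged in this balanced design. The count of 40 is therefore no measure of stability. With single arrays left out the ranges were -5.92 to -5.28 for GDF15, -2.42 to -0.46 for STC1, -2.40 to -2.30 for STC2, -3.34 to -3.14 for FGF21 and -2.01 to -0.31 for ANGPTL4. STC2 moved to -2.29 with quantile normalization, -2.18 with median centring and -1.82 with the mean of probe sets. FGF21 moved to -3.04 with quantile normalization and with cyclic loess, to -3.07 with median centring, and to -2.60 with a pseudocount of 2.91. STC1 moved to -1.37 with the mean of probe sets, and GDF15 to -1.46 without _x_at and _s_at probe sets. The cause of the shifts under normalization was not tested.

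Of 771 alternative values for 58 named genes, 719 kept the call, and also the direction where the gene was called. For a gene called in neither fit a change of sign was not counted. Such changes occurred after median centring in FGFR1 (0.12), LMF1 (0.16) and EIF2AK1 (0.06 log2 units). GDF11 turned to -0.21 with the mean of probe sets and -0.72 without _x_at and _s_at probe sets, and ran from -0.73 to 0.68 with single arrays left out, the values below 0 coming from other probe sets. With the mean of probe sets RXRA turned to 0.039, SP1 to -0.015 and MLX to -0.049, and these were not called. MLX stood at -0.23 without _x_at and _s_at probe sets and ran from -0.065 to 0.48 with single arrays left out.

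Same-numbered arrays did not deviate together (r = -0.004 across genes), and no label ties the numbers to a batch. With the replicate number as a block 6983 genes and 48 pathway genes were called. The block cannot change any log2 difference in this balanced design, so GDF15 stayed at -5.60.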
